A study of Mus musculus with 6 samples.

Results

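The genes described here encode the integrins of the mouse and the basement membrane and matrix proteins that many of them bind. The set holds 41 genes, chosen by symbol, and all 41 were found among the 22173 genes of the files. They are 25 integrin subunits, 17 alpha and 8 beta, and 16 ligands, namely 10 laminin chains, the nidogens Nid1 and Nid2, perlecan (Hspg2), agrin (Agrn), fibronectin (Fn1) and vitronectin (Vtn). RNA of whole retina was sequenced at postnatal day 17 in 3 Control libraries and 3 libraries of oxygen-induced retinopathy (OIR), all from wild-type C57BL/6J mice. Control pups stayed in room air from postnatal day 7 to day 17. OIR pups were kept in 75% oxygen from postnatal day 7 to day 12 and then in room air until day 17, a model in which retinal vessels are first lost and then regrow abnormally. The question put to these retinas is which genes change with pathological vessel growth. Nothing in the labels ties the libraries to separate animals or to pools. The spread that enters the p-values is thus that of these libraries, and it may be technical.

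An integrin is a pair of 1 alpha and 1 beta chain in the cell membrane, and the pair decides which matrix protein is bound. Beta1 pairs with most alpha chains, alpha V pairs with several beta chains, and the beta2 and beta7 integrins belong to leukocytes. Laminins are trimers of an alpha, a beta and a gamma chain that assemble into the sheet of the basement membrane, and nidogens, perlecan and agrin link that sheet to type IV collagen and to cells. In the retina, basement membranes lie around vessels and at the inner surface, where Müller glia and astrocytes attach. Fibronectin, bound by alpha5 beta1 and by alpha V integrins through its Arg-Gly-Asp (RGD) sequence, is laid down by growing vessels and by astrocytes.

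The libraries held 35615501 to 38025623 reads, recovered from the values. Values are RPKM, reads scaled to gene length and to library depth, so that levels of different genes can be compared per length. Markers of retinal neurons were abundant in all libraries (summed level of 15 markers 5059.7 to 6074 RPKM in Control and 5889.6 to 6137 RPKM in OIR). The Control 3 and OIR 2 libraries stood apart in their lens genes. A list of 22 lens genes took 6.38% of the reads of Control 3 and 0.554% of those of OIR 2, against 0.0152% to 0.0584% in the other 4 libraries. The lens is wrapped in a thick basement membrane, its capsule, which lens epithelial cells make from laminin, nidogen, perlecan and type IV collagen. Results on these genes are therefore given with and without the 2 lens-rich libraries. In whole tissue, a change in the number of cells of a type and a change in RNA per cell cannot be told apart.

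Of the 41 genes, 15 rose in OIR and none fell. Those that rose were 7 integrin subunits (Itga1, Itga5, Itga9, Itgam, Itgav, Itgb1 and Itgb8) and 8 ligands (Fn1, Lama4, Lama5, Lamb1, Lamb2, Lamc1, Nid2 and Agrn). Among them fibronectin changed most, with OIR at 4.31 times the Control mean, followed by the laminin chain Lama4 at 3.42 times and the fibronectin receptor subunit Itga5 at 3.17 times. Another 8 genes were tested and did not pass, and 18 were below the minimum for testing, 14 of them integrin subunits. Over all 12112 genes tested, 11.6% were called higher and 7.22% lower by the same limma fit. Without the lens-rich libraries Control 3 and OIR 2, which leaves 2 libraries per group, 21 of the 23 tested members were higher, all but Lama1 and Itga4, where 17.3% of all genes tested were called higher and 16% lower. A gene was tested when at least 3 libraries reached 1 RPKM, on the scale of log2(RPKM + 1), with a threshold of 0.05 on the p-value adjusted by Benjamini-Hochberg over all genes tested. Fold changes on this scale are smaller than ratios of means for low genes. Itga1 and Itga5 met the minimum through OIR libraries alone, and Itga4 and Itgam with only Control 3 at 1 RPKM or above among the Controls. No member was lower at an unadjusted p under 0.05 either, nor with limma-voom on the recovered reads.

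Without any minimum, all 3 OIR values lay above all 3 Control values in 22 of the 41 genes, where 20.5% of the 17953 genes above 0 in any library did so. This held for 13 of the 25 integrin subunits and 9 of the 16 ligands. No member had all OIR values below all Control values. The median log2 ratio of the group means (each mean + 0.1 RPKM) was 0.46 for the integrin subunits and 0.69 for the ligands, against 0.03 over the 17953 genes. In each of the 15 genes that rose, OIR 2 was the lowest of the 3 OIR libraries, and the same was true of 81.0% of the 1407 genes called higher and of 41.1% of all genes tested. OIR 2 held 0.554% of lens reads. Control 3, with 6.38%, was the highest Control in 9 of the 15 genes (60%), against 26.5% of the 1407 called higher and 19.5% of all tested. Any part of lens reads in these positions was not tested.

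**Figure D1:**
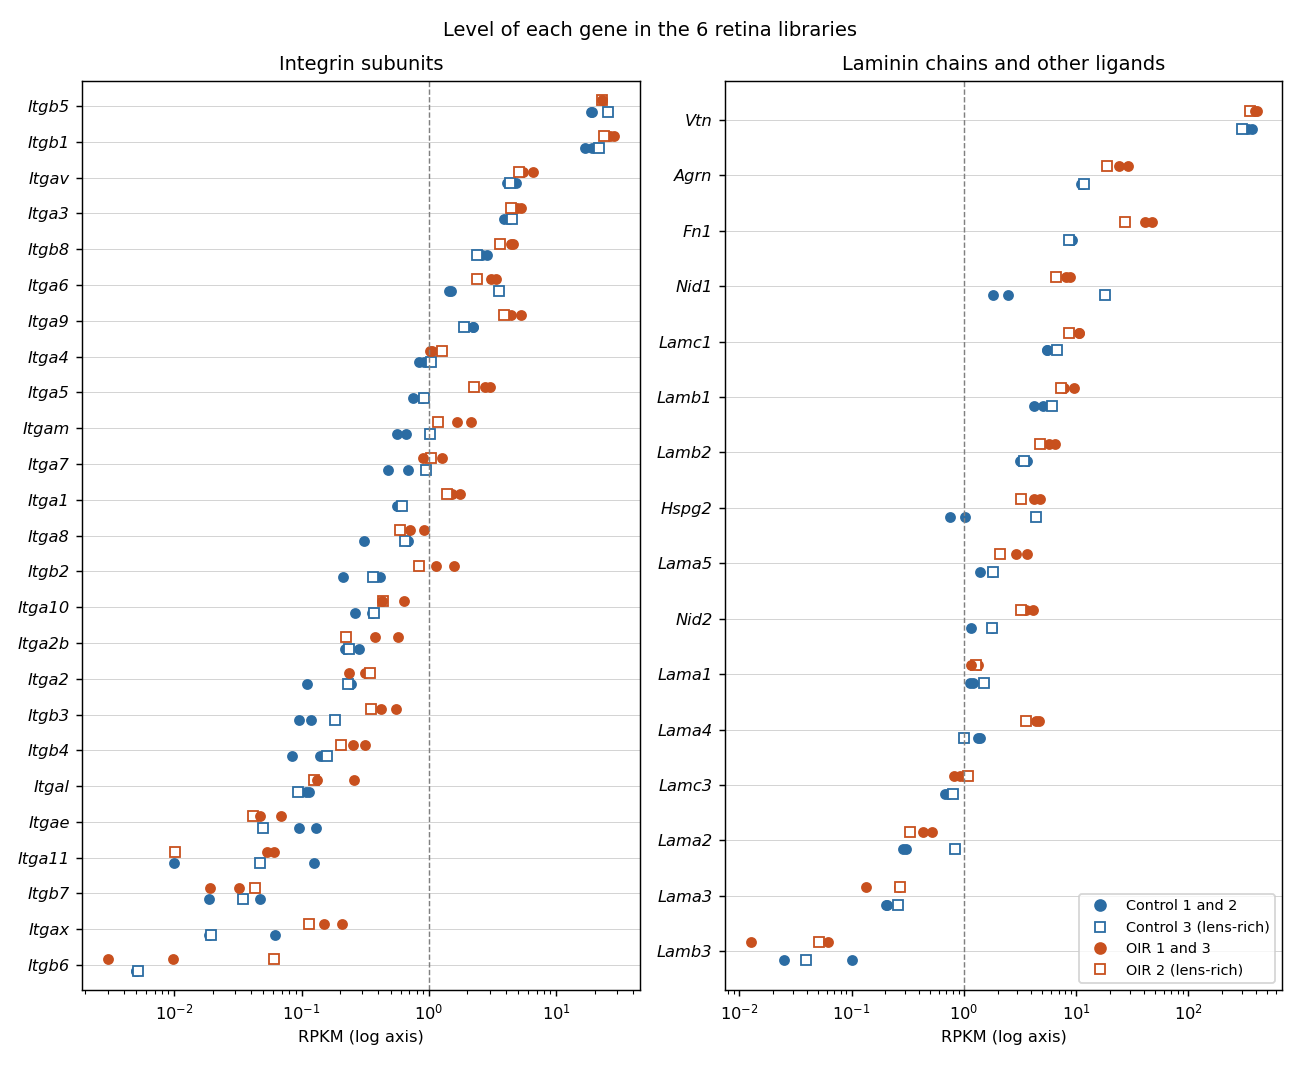
Level of each of the 41 genes in RPKM on a log axis, integrin subunits on the left and ligands on the right, ordered by Control mean; blue, Control; orange, OIR; open squares, the lens-rich libraries Control 3 and OIR 2; dashed line, 1 RPKM. The value of Itgb6 in OIR 1 is 0 and is drawn at the left edge. OIR points lie to the right of all Control points in 22 genes, among them Fn1, Lama4 and Itga5.

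Levels per length spanned a wide range within each family. In Control, the alpha subunits ran from Itgav at 4.43 RPKM and Itga3 at 4.21 RPKM down to Itgax at 0.0334 RPKM, and Itgav and Itga3 overlapped between libraries. Among the beta subunits, Itgb5 (21.0 ± 3.69 RPKM, SD, n = 3) and Itgb1 (19.1 ± 2.47 RPKM) also overlapped, and Itgb8 followed at 2.61 RPKM. In OIR, Itgb1 led the beta subunits at 26.3 ± 2.43 RPKM, with each library above those of Itgb5 at 23.0 ± 0.118 RPKM. Below Vtn, the ligands were led by Agrn and Fn1 in Control and, in the reverse order, by Fn1 and Agrn in OIR.

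Among tested members, fibronectin had the largest ratio of group means, 4.31, and its main receptor subunit Itga5 the largest of the integrin subunits, 3.17. Below the minimum of the main test, Itgax, Itgb6, Itgb2 and Itgb3 had larger ratios than Itga5, at 4.69, 4.64, 3.56 and 3.34. In this and all following sentences the 3 values of a group are those of libraries 1, 2 and 3 in that order. Fn1 was at 9.25, 9.02 and 8.62 RPKM in the Controls and 41.3, 27.0 and 47.5 RPKM in OIR. The 3 Control values lay close together, and the lowest OIR value, in OIR 2, was still above them all. The group values were 8.96 ± 0.318 RPKM (Controls) and 38.6 ± 10.5 RPKM (OIR; SD, n = 3 per group), with a log2 fold change of 1.95 (standard error 0.201, limma adjusted p 0.00359). Itga5, the alpha subunit that with beta1 forms the classical fibronectin receptor, was at 0.746, 0.881 and 0.917 RPKM in the Controls and 2.77, 2.28 and 3.01 RPKM in OIR. Every OIR library was above every Control library, at 0.848 ± 0.0903 RPKM (Controls) and 2.69 ± 0.374 RPKM (OIR; SD, n = 3 per group), with a log2 fold change of 0.99 (standard error 0.0985, limma adjusted p 0.000273). Itga5 met the minimum through OIR libraries alone, and with no minimum its limma adjusted p was 0.00520. Of the summed level of the 17 alpha subunits, Itga5 held 4.32, 5.10 and 4.49% in the Control libraries and 9.51, 9.19 and 9.55% in the OIR libraries. Vtn, the gene of vitronectin, another RGD ligand that circulates in plasma and is made in the retina by pericytes and photoreceptors, was by far the most abundant of the 41 genes, at 339, 366 and 302 RPKM in the Controls and 409, 351 and 391 RPKM in OIR. OIR 2 lay within the range of the Controls, and the difference did not pass, with a log2 fold change of 0.19, a 95% interval of -0.0015 to 0.39 and an adjusted p of 0.150. Without both lens-rich libraries Vtn passed, at an adjusted p of 0.0321 and a log2 fold change of 0.18.

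The other receptors of RGD ligands are the alpha V, alpha 8 and alpha IIb subunits and the beta3, beta5, beta6 and beta8 chains. Itgav was at 4.84, 4.13 and 4.31 RPKM in the Controls and 5.50, 5.13 and 6.56 RPKM in OIR, so that every OIR value was above every Control value by a small margin. Its log2 fold change was 0.31 (limma adjusted p 0.0466). This call was close to the threshold and ended under 12 of 17 alternatives. It ended when Control 1, Control 2, Control 3, OIR 1 or OIR 3 was left out, at adjusted p of 0.0691, 0.138, 0.0954, 0.112 and 0.189, and with the replicate number as a block, at 0.0529. It also ended with no minimum (0.0883), with a minimum and pseudocount of 0.1 (0.0550), with median-of-ratios and upper-quartile scaling (0.0613 and 0.0666), with the lens covariate (0.0695) and with lens reads taken out of the total (0.0601). Itgb8, which with alpha V binds latent TGF-beta and in the brain and retina is a gene of neural progenitors and glia, rose from 2.61 ± 0.233 to 4.21 ± 0.507 RPKM (log2 fold change 0.53, adjusted p 0.00598). Its values of 2.85, 2.60 and 2.38 RPKM in the Controls and 4.43, 3.63 and 4.57 RPKM in OIR did not overlap. Itgb5, the most abundant beta chain in Control beside Itgb1, was at 18.8, 19.0 and 25.3 RPKM in the Controls and 23.0, 23.1 and 22.8 RPKM in OIR. The OIR values were nearly identical to each other, and Control 3 was above them. Its log2 fold change was 0.14, with an interval of -0.09 to 0.36 and an adjusted p of 0.380. Without Control 3 the difference passed, at an adjusted p of 0.0166 and a log2 fold change of 0.27, and it also passed without both lens-rich libraries, at 0.00729.

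The other RGD-binding chains were low. Itgb3, the beta chain of the alpha V beta3 integrin of growing endothelium and of the platelet receptor, was at 0.0947, 0.118 and 0.184 RPKM in the Controls and 0.418, 0.353 and 0.552 RPKM in OIR, with 21, 26 and 39 reads in Control and 92, 77 and 125 in OIR. Its groups did not overlap, and its level was too low for the main test. A limma-voom fit to recovered reads, with at least 10 reads in 3 libraries, was added after seeing the data and called Itgb3 higher (log2 fold change 1.76, standard error 0.343, adjusted p 0.00540), where 11.3% of the 15032 genes in that fit were called higher and 6.98% lower. In that fit 17 of the 38 members it held were higher and none was lower. Itga2b, the alpha chain of the platelet receptor, was at 0.219, 0.282 and 0.237 RPKM in the Controls and 0.567, 0.222 and 0.375 RPKM in OIR, and OIR 2 was within the Control range (limma-voom adjusted p 0.349). Of the platelet markers, Ppbp, Gp6 and Treml1 were at 0 in all libraries, and Pf4 was at 0.229, 0.183 and 0.239 RPKM in the Controls and 0.782, 1.16 and 1.30 RPKM in OIR, too low for the main test. Itga8, a subunit of mesenchymal and contractile cells, was at 0.306, 0.690 and 0.653 RPKM in the Controls and 0.913, 0.597 and 0.705 RPKM in OIR. Control 1 was its lowest library, and the groups overlapped (limma-voom adjusted p 0.269). Control 1 was also lowest in the summed level of 8 genes of connective tissue, at 6.02 RPKM against 14.1 and 20.6 RPKM in the other Controls, and the part of this in Itga8 was not tested. Itgb6, an epithelial chain, had 1, 1 and 1 reads in Control and 0, 12 and 2 in OIR. At this depth it was barely detected, and its 0 in OIR 1 allows a level of up to 0.0150 RPKM (3 reads, counting error only).

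Of the beta1 family, Itgb1, Itga1 and Itga9 rose, as did Itga5 above. Itga4 did not pass, nor did Itga3 and Itga6, given below, with all libraries. Itgb1, the shared beta chain, was at 19.0, 16.7 and 21.6 RPKM in the Controls and 26.7, 23.7 and 28.6 RPKM in OIR. Each OIR value exceeded each Control value, with a log2 fold change of 0.44 (limma adjusted p 0.0131), and the call ended without Control 1 or OIR 1, at 0.0521 and 0.0582. Itga1, a collagen and laminin receptor subunit of endothelium and mural cells, was at 0.562, 0.568 and 0.615 RPKM in the Controls and 1.51, 1.38 and 1.75 RPKM in OIR, with a log2 fold change of 0.69 (standard error 0.0909, limma adjusted p 0.00119). Its Control values differed little, and the lowest OIR value was well above the highest Control value. Itga1 met the minimum through OIR libraries alone, and with no minimum its limma adjusted p was 0.00705. Itga9, which binds tenascin-C, osteopontin and other matrix proteins and is expressed in lymphatic endothelium, smooth muscle and glia, was at 2.24, 2.21 and 1.88 RPKM in the Controls and 4.37, 3.87 and 5.33 RPKM in OIR, a ratio of 2.15 with a log2 fold change of 0.82 (standard error 0.106, limma adjusted p 0.00109). Itga4, the fibronectin and VCAM-1 receptor subunit of leukocytes and of some endothelium, was at 0.913, 0.833 and 1.05 RPKM in the Controls and 1.06, 1.26 and 1.02 RPKM in OIR. OIR 1 and OIR 3 lay beside Control 3, and the difference did not pass (interval -0.07 to 0.33, adjusted p 0.350).

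The subunits grouped here as mainly laminin-binding are Itga3, Itga6, Itga7 and Itgb4. Only Itga3 and Itga6 were tested, and neither passed with all libraries. Itga3, the most abundant of them, was at 3.88, 4.28 and 4.47 RPKM in the Controls and 4.96, 4.38 and 5.24 RPKM in OIR, with overlapping groups (interval of the log2 fold change -0.02 to 0.36, adjusted p 0.195). It passed without both lens-rich libraries, at a log2 fold change of 0.27 and an adjusted p of 0.0400. Itga6, found on endothelium and on lens epithelium, was at 1.50, 1.44 and 3.54 RPKM in the Controls and 3.10, 2.39 and 3.39 RPKM in OIR. Control 3 was the highest of all 6 libraries and stood at 2.40 times the mean of the other Controls. With all libraries the log2 fold change was 0.38 (adjusted p 0.377). Without Control 3 it was 0.67 (adjusted p 0.0154), and without both lens-rich libraries 0.78 (adjusted p 0.000524). Itga7, a subunit of muscle and of vascular smooth muscle, and Itgb4, the partner of alpha 6 in epithelia and some endothelium, were below the minimum. Itga7 was at 0.684, 0.477 and 0.942 RPKM in the Controls and 1.28, 1.04 and 0.894 RPKM in OIR, with OIR 3 below Control 3 (limma-voom adjusted p 0.0689). Itgb4 was at 0.139, 0.0846 and 0.159 RPKM in the Controls and 0.255, 0.206 and 0.318 RPKM in OIR, without overlap, and just missed the threshold of the limma-voom fit (log2 fold change 1.04, standard error 0.349, adjusted p 0.0551).

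The collagen-binding subunits other than Itga1 were low. Itga2 was at 0.246, 0.110 and 0.233 RPKM in the Controls and 0.312, 0.346 and 0.237 RPKM in OIR and Itga10, a cartilage subunit, at 0.261, 0.358 and 0.368 RPKM in the Controls and 0.633, 0.433 and 0.428 RPKM in OIR. The groups of Itga10 did not overlap, but neither gene passed with limma-voom, at adjusted p of 0.185 and 0.153. Itga11, a subunit of fibroblasts, had 2, 25 and 9 reads in Control and 12, 2 and 11 in OIR, with overlapping groups (limma-voom adjusted p 0.869).

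Of the 6 leukocyte subunits only Itgam was abundant enough for the main test, and it rose. Itgam, the CD11b chain of microglia and other myeloid cells, was at 0.563, 0.657 and 1.02 RPKM in the Controls and 1.65, 1.18 and 2.14 RPKM in OIR. The groups did not overlap, and the log2 fold change was 0.60 (limma adjusted p 0.0189), but the call ended without Control 1, Control 2, OIR 1 or OIR 3, at 0.0784, 0.0640, 0.0745 and 0.0522, and with no minimum, at 0.0549. Itgb2, the CD18 chain that pairs with it, was at 0.212, 0.416 and 0.366 RPKM in the Controls and 1.13, 0.834 and 1.58 RPKM in OIR. Only 2 of its libraries reached 1 RPKM, so that it was not tested in the main fit, and the limma-voom fit called it higher (log2 fold change 1.83, standard error 0.361, adjusted p 0.00575). Itgax, the CD11c chain of dendritic cells and activated microglia, was at 0.0621, 0.0187 and 0.0195 RPKM in the Controls and 0.150, 0.114 and 0.206 RPKM in OIR, from 10, 3 and 3 reads in Control and 24, 18 and 34 in OIR, and the limma-voom fit called it higher as well (log2 fold change 2.29, standard error 0.582, adjusted p 0.0186). With no minimum, on log2(RPKM + 1), Itgb2 and Itgax had adjusted p of 0.0264 and 0.0406, and with a minimum and pseudocount of 0.1 Itgax did not pass, at 0.0614. The other leukocyte chains were not tested in the main fit. Itgal, the CD11a chain, was at 0.109, 0.114 and 0.0933 RPKM in the Controls and 0.260, 0.126 and 0.131 RPKM in OIR without overlap (limma-voom adjusted p 0.326). Itgae had 19, 14 and 7 reads in Control and 10, 6 and 7 in OIR, with overlap (limma-voom adjusted p 0.403), and Itgb7 had 10, 4 and 7 and 4, 9 and 7. Of 13 markers of microglia and macrophages, 10 of the 12 tested were higher, where 11.6% of all genes tested were called higher. The summed level of the 13 was 48.8 to 54.2 RPKM in Control and 115 to 152 RPKM in OIR. None of 12 blood leukocyte markers was tested. Their summed level was 0.213 to 0.568 RPKM in Control and 0.762 to 3.20 RPKM in OIR, and Ly6g and Ncr1 were at 0 in all libraries. The part of either cell type in the integrin values was not tested.

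**Figure D2:**
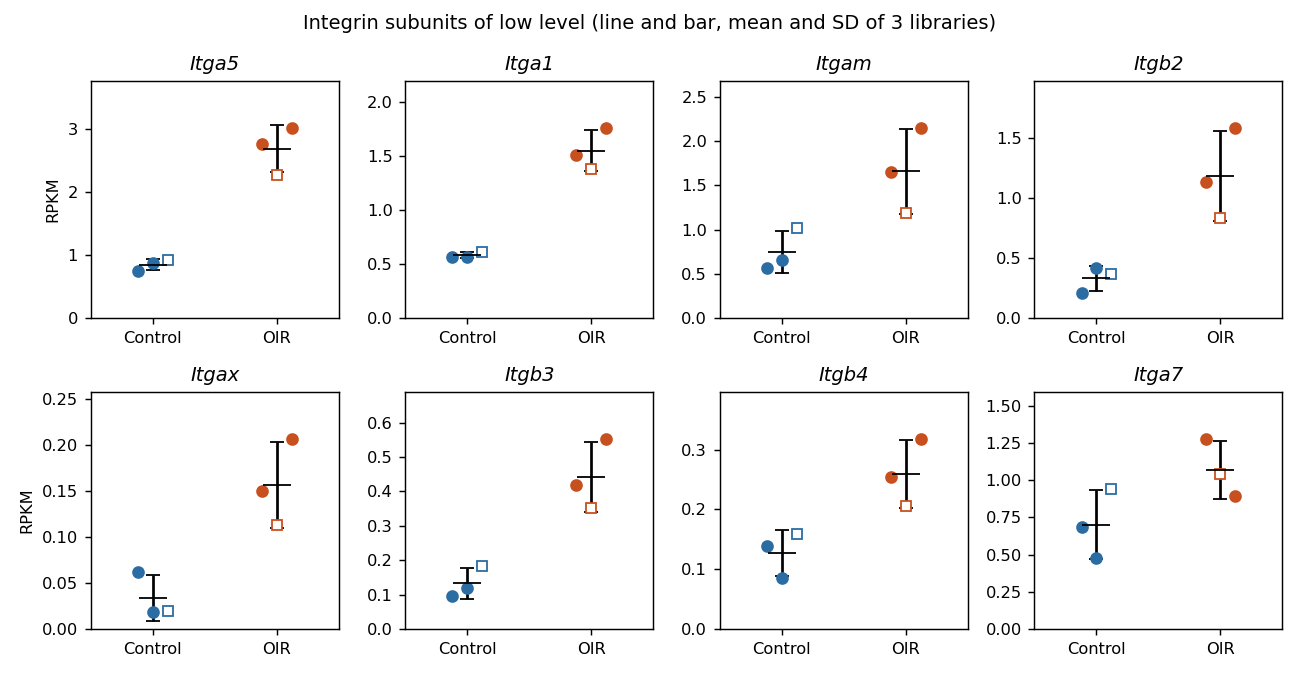
RPKM of 8 integrin subunits of low level, chosen after their values were seen, in each library (circles, and squares for the lens-rich libraries), with the mean and SD of 3 libraries per group. In all of these but Itga7 the 3 OIR values lie above the 3 Control values; Itgb2, Itgax, Itgb3, Itgb4 and Itga7 were below the minimum of the main test. Of all 14 subunits below it, 6 had groups that separated in this way, where 20.5% of the 17953 genes above 0 in any library, tested or not, did so.

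Of the laminin alpha chains, which define the kind of laminin, Lama4 and Lama5 rose and Lama1 did not pass. Lama4, the laminin alpha chain of vessel walls, was at 1.38, 1.33 and 1.003 RPKM in the Controls and 4.66, 3.60 and 4.42 RPKM in OIR, with a log2 fold change of 1.22 (standard error 0.106, limma adjusted p 0.000119). All OIR values were far above the Controls, and Control 3 was the lowest library. Lama5, the alpha chain of mature vascular and epithelial basement membranes, was at 1.40, 1.77 and 1.83 RPKM in the Controls and 2.89, 2.10 and 3.62 RPKM in OIR, with a log2 fold change of 0.52 (standard error 0.138, limma adjusted p 0.0277). Its groups did not overlap, but the call ended without each single library other than OIR 2, at adjusted p from 0.0564 (Control 3) to 0.106 (Control 1), with 0.0650 without Control 2, 0.104 without OIR 1 and 0.0775 without OIR 3. It also ended with no minimum (0.0720), with the lens covariate (0.0606) and with limma-voom under either minimum (0.0647 and 0.0654), so under 9 of 17 alternatives. Lama1, the alpha chain of embryonic basement membranes and of the inner surface of the retina, was at 1.20, 1.13 and 1.53 RPKM in the Controls and 1.33, 1.29 and 1.17 RPKM in OIR. The groups overlapped fully, with a log2 fold change of -0.01 and an interval of -0.22 to 0.20. Lama2, a chain of muscle and mural cells, was at 0.305, 0.286 and 0.843 RPKM in the Controls and 0.525, 0.328 and 0.429 RPKM in OIR, and Lama3, an epithelial chain, at 0.208, 0.201 and 0.257 RPKM in the Controls and 0.266, 0.273 and 0.135 RPKM in OIR. Lama2 was highest in Control 3, at 2.85 times the mean of the other Controls, and neither gene was tested in the main fit (limma-voom adjusted p 0.983 and 0.922).

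The makeup of the alpha chain RNA is given as shares. Per length, Lama4 held 30.8, 28.2 and 18.4% of the summed alpha chain level in the Control libraries and 48.2, 47.5 and 45.2% in the OIR libraries. Lama1 held 26.6, 24.0 and 28.0% and 13.8, 17.01 and 11.9%, and Lama5 31.2, 37.4 and 33.5% and 29.9, 27.6 and 37.1%. The shares of Lama4 were thus higher in every OIR library than in any Control, those of Lama1 were lower, and those of Lama5 overlapped. These shares describe the members and were not tested.

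Of the 5 beta and gamma chains, Lamb1, Lamb2 and Lamc1 were tested, and all 3 rose. Lamb3 and Lamc3 were below the minimum. Lamb1 was at 5.05, 4.24 and 6.10 RPKM in the Controls and 7.82, 7.28 and 9.52 RPKM in OIR, a ratio of 1.60 (log2 fold change 0.59, adjusted p 0.0113). Lamb2, the beta chain of mature vascular and retinal laminins, was at 3.17, 3.67 and 3.42 RPKM in the Controls and 5.70, 4.78 and 6.48 RPKM in OIR, a ratio of 1.66 (log2 fold change 0.59, adjusted p 0.00471). Lamc1, the gamma chain of nearly all laminins, was at 5.49, 5.47 and 6.79 RPKM in the Controls and 10.6, 8.55 and 10.6 RPKM in OIR, a ratio of 1.68 (log2 fold change 0.66, adjusted p 0.00315). In all of these the OIR values lay above the Controls. Lamb1 held 60.7, 53.4 and 63.8% of the summed beta chain level in Control and 57.8, 60.1 and 59.3% in OIR, so the balance of Lamb1 and Lamb2 overlapped between the groups. Lamc3, a chain of the retina and brain, was at 0.685, 0.725 and 0.808 RPKM in the Controls and 0.919, 1.09 and 0.825 RPKM in OIR, without overlap (limma-voom adjusted p 0.137). Lamb3, an epithelial chain, had 8, 2 and 3 reads in Control and 1, 4 and 5 in OIR. Summed per library, the alpha chains were at 4.50, 4.71 and 5.46 RPKM in Control and 9.67, 7.60 and 9.78 RPKM in OIR, the beta chains at 8.32, 7.93 and 9.55 and 13.5, 12.1 and 16.1, and the gamma chains at 6.18, 6.20 and 7.60 and 11.5, 9.64 and 11.4. The summed alpha level was below the summed beta and gamma levels in every library.

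**Figure D3:**
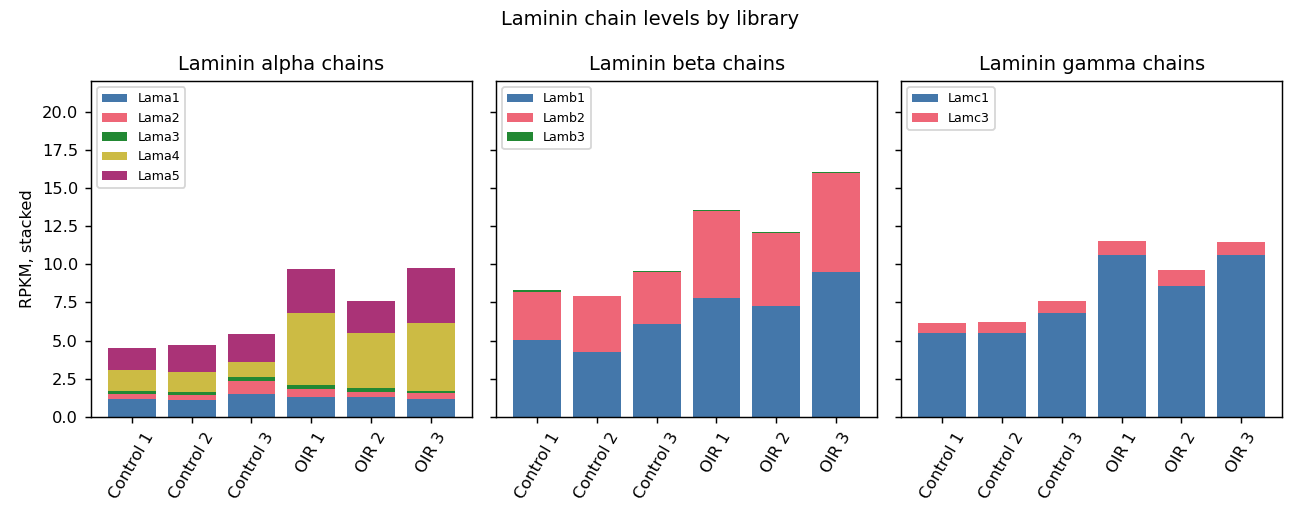
Stacked RPKM of the laminin alpha, beta and gamma chains in each library. Lama4 makes up more of the alpha stack in the 3 OIR libraries than in the 3 Control libraries, while Lama1 is of similar height in all 6.

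Of the 4 linkers of the laminin network, Agrn and Nid2 rose, while Nid1 and Hspg2 did not pass with all libraries and were high in Control 3. Agrn, the gene of agrin, a heparan sulfate proteoglycan that binds laminin and dystroglycan, was at 11.1, 11.4 and 11.7 RPKM in the Controls and 24.1, 18.9 and 28.8 RPKM in OIR. The Controls were almost equal, each OIR value was higher, and the test gave a log2 fold change of 0.99 (standard error 0.127, limma adjusted p 0.00205). Nid2, the nidogen more typical of vessels, was at 1.15, 1.77 and 1.79 RPKM in the Controls and 3.61, 3.23 and 4.11 RPKM in OIR, without overlap and with a log2 fold change of 0.86 (standard error 0.118, limma adjusted p 0.00144). Nid1 was at 2.46, 1.83 and 18.2 RPKM in the Controls and 8.18, 6.55 and 8.88 RPKM in OIR. In Control 3 it stood at 8.49 times the mean of the other Controls and above every OIR library. Hspg2, the gene of perlecan, was at 0.747, 1.03 and 4.35 RPKM in the Controls and 4.23, 3.26 and 4.79 RPKM in OIR, and Control 3 stood at 4.90 times the mean of the other Controls, within the range of OIR.

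With all libraries neither gene passed. For Nid1 the log2 fold change was 0.62 (interval -1.75 to 3.00, adjusted p 0.674), and for Hspg2 it was 0.92 (interval -0.44 to 2.28, adjusted p 0.286). Leaving out Control 3 brought both past the threshold, Nid1 at 1.49 (adjusted p 0.00388) and Hspg2 at 1.42 (adjusted p 0.00465). Leaving out both lens-rich libraries gave 1.61 for Nid1 (adjusted p 5.00e-05) and 1.55 for Hspg2 (adjusted p 5.66e-05). OIR 2, with 0.554% of lens reads against 6.38% in Control 3, lay below OIR 1 and OIR 3 in both genes. It was also the lowest OIR library in 81.0% of the 1407 genes called higher. Any part of lens reads in these positions was not tested. With the summed lens level as a covariate neither Nid1 nor Hspg2 passed, at adjusted p of 0.400 and 0.118. Over all tested genes, 1.11% were in Control 3 at least at 2 times the mean of the other Controls, and 3 of the 23 tested members were (Nid1, Hspg2 and Itga6). Of the untested members, Lama2 was as well.

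**Figure D4:**
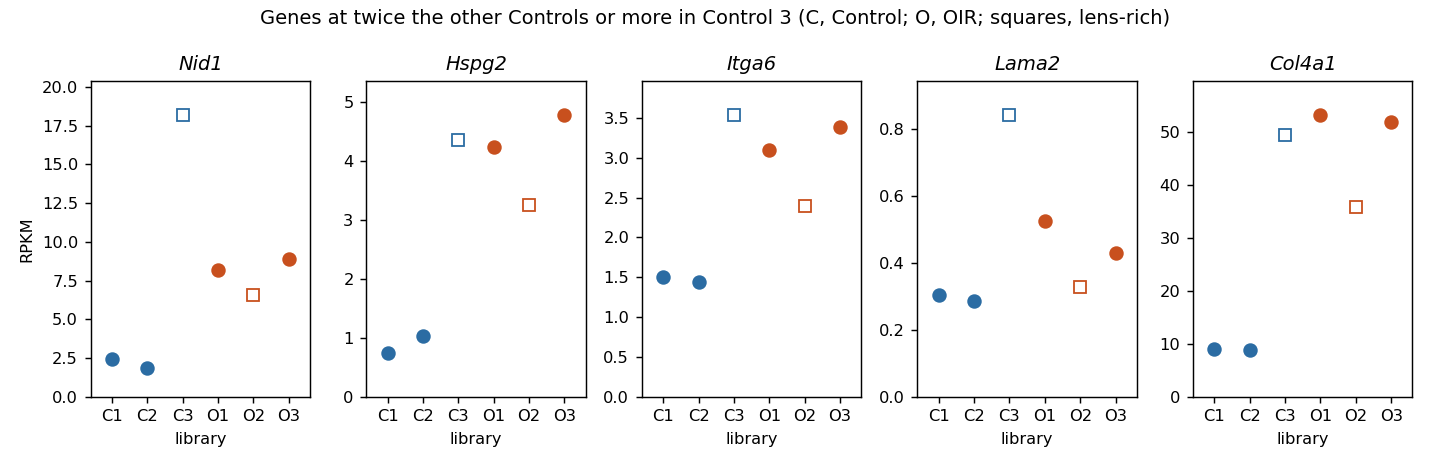
RPKM by library of the 4 members that were in Control 3 at least at 2 times the mean of the other Controls, and of Col4a1, the collagen gene to which nidogen and perlecan bind in the basement membrane; squares, lens-rich libraries. Control 3 lies with or above the OIR libraries in Nid1, Hspg2, Itga6, Lama2 and near them in Col4a1, and OIR 2 does not rise above OIR 1 and OIR 3.

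**Figure D5:**
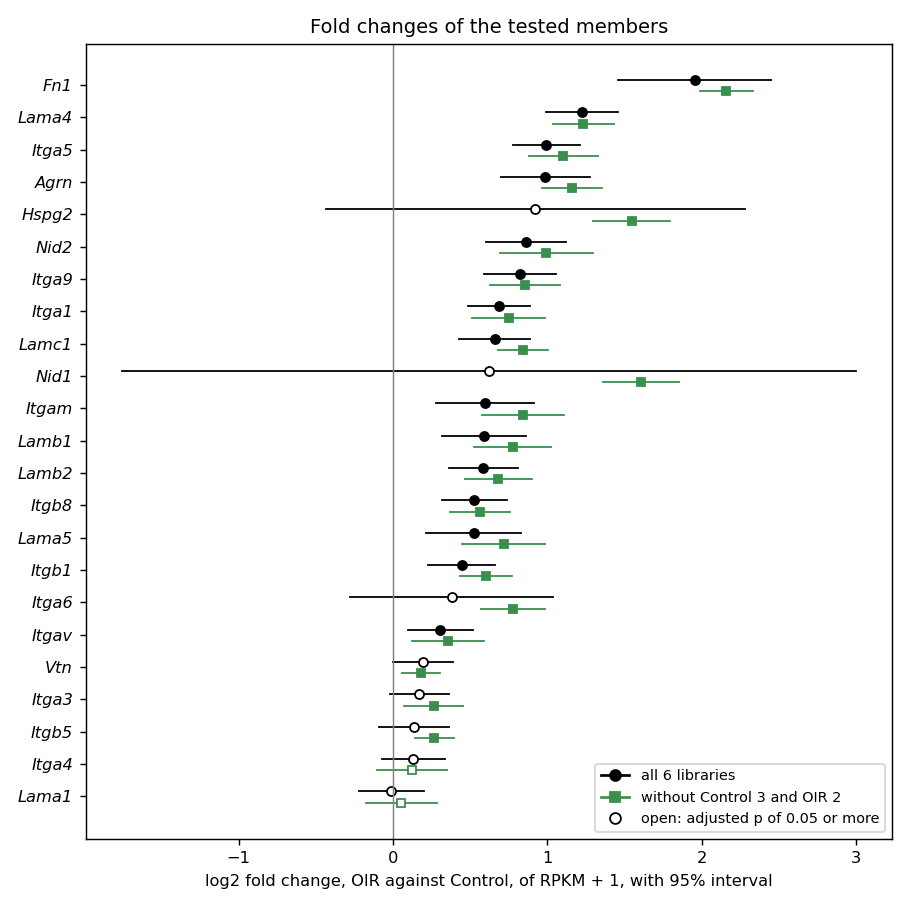
Log2 fold change of OIR against Control, on RPKM + 1, with its 95% interval for the 23 tested members; black, all 6 libraries; green, without Control 3 and OIR 2; filled, adjusted p under 0.05. Intervals of Nid1, Hspg2 and Itga6 are wide with all libraries and narrow without the lens-rich ones, while Fn1, Lama4 and Itga5 differ little between the fits.

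Promoter sequences, 300 bases from 250 before to 50 after the annotated start, were at hand from RefSeq (build GRCm38.p6) for 27 of the 41 genes, among them 11 that rose. The 2 integrin subunits and 2 ligands of that group with the largest log2 fold changes were Itga5, Itga9, Agrn and Lamb1. They are shown beside Vtn, the abundant ligand that did not pass with all libraries. Genes that passed and one that did not can thus be read together. Capitals mark every match to ACGTG or GCGTG, the core letters bound by hypoxia-inducible factors, on either strand (CACGT or CACGC on the printed strand). The windows are Itga5, chr15:103366742-103367041 (minus strand), Itga9, chr9:118711442-118711741 (plus strand), Agrn, chr4:156197439-156197738 (minus strand), Lamb1, chr12:31265043-31265342 (plus strand) and Vtn, chr11:78498870-78499169 (plus strand), and for Agrn the first of 2 listed starts is shown.
Itga5: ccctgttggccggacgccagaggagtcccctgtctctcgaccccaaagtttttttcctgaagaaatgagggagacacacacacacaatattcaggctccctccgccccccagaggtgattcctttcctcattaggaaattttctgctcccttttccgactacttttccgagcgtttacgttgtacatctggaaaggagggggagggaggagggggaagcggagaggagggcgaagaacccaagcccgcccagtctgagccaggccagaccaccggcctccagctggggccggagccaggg
Itga9: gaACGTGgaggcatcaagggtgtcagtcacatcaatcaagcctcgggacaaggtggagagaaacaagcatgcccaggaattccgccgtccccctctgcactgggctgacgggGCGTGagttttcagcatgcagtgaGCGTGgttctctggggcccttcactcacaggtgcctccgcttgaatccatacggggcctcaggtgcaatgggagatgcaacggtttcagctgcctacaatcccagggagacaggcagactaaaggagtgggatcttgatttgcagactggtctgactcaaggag
Agrn: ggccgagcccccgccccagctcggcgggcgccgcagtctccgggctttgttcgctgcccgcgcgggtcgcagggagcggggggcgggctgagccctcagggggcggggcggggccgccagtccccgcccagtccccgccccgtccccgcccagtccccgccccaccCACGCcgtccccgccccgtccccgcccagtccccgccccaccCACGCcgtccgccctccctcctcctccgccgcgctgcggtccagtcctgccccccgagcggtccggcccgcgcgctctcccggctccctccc
Lamb1: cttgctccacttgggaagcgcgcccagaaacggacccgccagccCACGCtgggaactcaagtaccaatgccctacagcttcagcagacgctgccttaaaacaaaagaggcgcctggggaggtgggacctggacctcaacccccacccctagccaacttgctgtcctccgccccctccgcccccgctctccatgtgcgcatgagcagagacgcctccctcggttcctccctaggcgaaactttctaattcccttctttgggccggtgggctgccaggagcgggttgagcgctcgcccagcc
Vtn: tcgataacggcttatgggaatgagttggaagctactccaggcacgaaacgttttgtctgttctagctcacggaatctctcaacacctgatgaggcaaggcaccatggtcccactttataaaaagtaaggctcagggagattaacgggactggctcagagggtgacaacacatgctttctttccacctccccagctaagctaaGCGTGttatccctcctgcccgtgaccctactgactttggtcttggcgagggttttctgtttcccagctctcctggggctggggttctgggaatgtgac
The core was found 3 times in the window of Itga9, 2 times in that of Agrn and once each in those of Lamb1 and Vtn, and it was not among the letters of the Itga5 window. Of the genes with a listed promoter, 3 of the 11 that rose held it (Itga9, Agrn and Lamb1), 4 of 6 that did not pass (Hspg2, Itga4, Itgb5 and Vtn) and 3 of 10 that were not tested (Itga2, Itgax and Lamb3). Over the 32851 promoter windows of the table, 43.8% held it, and over its 27025 genes 46.7% did. A match is a run of letters and not a measured binding site.

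Genes that act with integrins inside the cell were also followed, from a list of 28 adaptors and focal adhesion genes. Of the 25 tested, 14 were higher and 1 lower in OIR, where 11.6% of all genes tested were called higher and 7.22% lower. The median log2 fold change was 0.25 against 0.03 over all tested genes. Fermt3, among the 14 and named after its values were seen, met the minimum through OIR libraries alone. The 4 with the smallest adjusted p were Pxn (paxillin), Vasp, Flna (filamin A) and Tln1 (talin 1, which activates integrins by binding the beta tail). Flna was at 9.68, 11.6 and 12.5 RPKM in the Controls and 23.1, 17.4 and 24.6 RPKM in OIR (log2 fold change 0.88, adjusted p 0.00469). Vasp, an actin regulator, was at 6.06, 5.68 and 7.73 RPKM in the Controls and 10.8, 9.98 and 12.6 RPKM in OIR (log2 fold change 0.70, adjusted p 0.00394). Pxn and Tln1 rose by smaller amounts, with log2 fold changes of 0.50 and 0.46 (adjusted p 0.00327 and 0.00481). The lower gene was Parva (alpha parvin), named after its values were seen, at 32.7, 32.3 and 29.2 RPKM in the Controls and 26.1, 26.5 and 25.3 RPKM in OIR (adjusted p 0.0214), a call that ended without Control 1, Control 2, OIR 1 or OIR 3, at 0.0913, 0.0721, 0.0825 and 0.0861.

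Of 24 other basement membrane components and laminin receptors, 16 were tested, 4 were higher and 2 lower. Over all genes tested, 11.6% were called higher and 7.22% lower. The 4 higher were Col15a1, a vascular collagen, Dag1, the gene of dystroglycan, which binds laminin and agrin, Sdc4, a syndecan of focal adhesions, and Egflam, the gene of the photoreceptor synapse protein pikachurin. Col15a1 was at 0.349, 0.269 and 0.454 RPKM in the Controls and 1.33, 1.33 and 1.08 RPKM in OIR (log2 fold change 0.73, adjusted p 0.00119), having met the minimum through OIR alone. Dag1 was at 18.1, 16.8 and 16.1 RPKM in the Controls and 22.7, 21.5 and 25.2 RPKM in OIR (log2 fold change 0.42, adjusted p 0.00603). Log2 fold changes were 0.43 for Sdc4 and 0.38 for Egflam (adjusted p 0.00917 and 0.0102). The 2 lower genes, named after their values were seen, were Npnt, the gene of nephronectin, a ligand of alpha 8 beta1, at 20.9, 17.2 and 19.1 RPKM in the Controls and 12.9, 15.7 and 13.2 RPKM in OIR (log2 fold change -0.43, adjusted p 0.0118), and Frem1 (log2 fold change -0.41, adjusted p 0.0111). Both calls ended without OIR 1, at 0.0613 and 0.0580, and that of Npnt also without Control 1, at 0.0568. Col4a1 and Col4a2, also named after their values were seen, had the pattern of Nid1 and Hspg2. Col4a2 was at 8.84, 9.70 and 39.5 RPKM in the Controls and 35.9, 26.4 and 37.1 RPKM in OIR, and the pair did not pass with all libraries (adjusted p 0.281 and 0.348) but passed without Control 3 (0.00514 and 0.00465).

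A last list held 26 symbols of other integrin ligands, of which 23 were in the files and 18 were tested. Of these, 7 were higher and 1 lower, where 11.6% of all genes tested were called higher and 7.22% lower. Vwf, the gene of von Willebrand factor of endothelium, was at 1.19, 1.04 and 1.26 RPKM in the Controls and 4.15, 4.17 and 4.20 RPKM in OIR (log2 fold change 1.26, adjusted p 1.61e-05). Adam15, a membrane protease with an integrin-binding domain, rose by 0.45 and Emilin1, a glycoprotein of elastic fibres, by 0.47 on the log2 scale (adjusted p 0.00318 and 0.0179). The call of Emilin1 ended without Control 1, Control 2 or OIR 1, at 0.0584, 0.0590 and 0.0781. Edil3, whose protein binds alpha V integrins through an RGD sequence, was the lower gene, at 23.1, 20.4 and 19.7 RPKM in the Controls and 13.2, 15.99 and 13.5 RPKM in OIR (log2 fold change -0.54, adjusted p 0.00375).

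Markers of the cells that bear many of these genes moved in the same libraries. The counts below stand beside 11.6% of all genes tested called higher and 7.22% lower. Of 13 endothelial markers, all tested, 11 were higher, with a median log2 fold change of 0.94 and a summed level of 73.9 to 79.5 RPKM in Control and 133 to 145 RPKM in OIR. Erg, among these 11, met the minimum through OIR libraries alone. Of 10 pericyte and smooth muscle markers, 6 of the 9 tested were higher, with a summed level of 30.1 to 54.6 RPKM in Control and 73.2 to 94.4 RPKM in OIR, lowest in Control 1. Notch3 and Des, among these 6, met the minimum through OIR libraries alone. Of 11 Müller glia markers, all tested, 3 were higher and 6 lower, and of 6 astrocyte markers 2 of the 5 tested were higher and 1 lower, with a summed level of 42.3 to 49.5 RPKM in Control and 64.7 to 113 RPKM in OIR. Of 10 pigment epithelium markers, 6 were tested and 1 was lower. The Control and OIR ranges of the endothelial, mural and astrocyte sums did not overlap. The astrocyte sum separated with Gfap in it, a gene that glia raise in injury, at 8.60, 7.50 and 5.65 RPKM in the Controls and 61.3, 28.0 and 74.1 RPKM in OIR. The other 5 astrocyte markers summed to 40.8, 38.4 and 36.7 RPKM in the Controls and 33.1, 36.7 and 39.0 RPKM in OIR, with overlap. Of these 5, Aqp4, also in the Müller glia list, was the largest in the Controls and was the lower gene. It was at 21.6, 21.3 and 19.7 RPKM in the Controls and 12.6, 15.6 and 12.7 RPKM in OIR. Pdgfra, Aldh1l1 and Pax2, the last too low for the main test, had every OIR value above every Control value, and S100b overlapped. The part of these cells in the values of Fn1, Itga5, Itga1, Lama4, Nid2 and the other members that rose was not tested.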

How the data were processed

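RNA of whole retina was measured in 6 libraries, grouped by sample title. The authors deposited 1 value per gene symbol and library, read here as RPKM from their steps. Per the submitters' processing notes, the tools included TopHat2 2.0.12 and Bowtie2 2.0.6. Build, annotation, counting program and strand were not given in the sources used here, and the library protocol in the labels describes another species. Reads shared with related genes may therefore be split in unknown ways.

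Whole reads were recovered within 0.02 of a read for 17952 of 17953 genes above 0, with GENCODE M21 transcript lengths setting the absolute depth through 55 genes. The main test was limma 3.58.1 (trend and robust) in R 4.3.3 on log2(RPKM + 1), with group as the only term, over genes with at least 1 RPKM in at least 3 libraries, two-sided, with Benjamini-Hochberg adjustment over all 12112 genes. Fold changes on this scale understate the change of low genes. The test was tried on simulated data. Alternatives were another pseudocount, other minima and scalings, a block for replicate number, omission of each library or of both lens-rich libraries, lens corrections and limma-voom.

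The members and lists were chosen with earlier results of these data known. All 41 members are named, and from each of 3 further lists the 4 tested genes with the smallest adjusted p. One listed gene is not reported here.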

Additional observations from a re-analysis of the deposited data

How the results depend on the processing

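Of the 15 members that rose, 11 stayed past the threshold under all 17 alternatives, and all 15 kept their direction. The exceptions were Itgav, Lama5, Itgam and Itgb1. With each library left out in turn, 11 to 17 members were higher, 4 to 8 integrin subunits and 7 to 9 ligands, while 513 to 1754 of all genes were higher and 212 to 1293 lower. Without OIR 1, Control 1 or OIR 3, genes higher numbered 513, 658 and 697, and genes lower 212, 265 and 348, with 421 lower without Control 2. Integrin subunits higher numbered 4 without OIR 1 and 4 without Control 1. The count of genes lower was 529 with no minimum, 1379 with upper-quartile scaling and 1943 without both lens-rich libraries, against 875. The higher genes made up 61.7% of all calls in the main fit, but 51.2% with median-of-ratios scaling, 46.9% with upper-quartile scaling and 51.5% with lens reads taken out of the total. The log2 fold change of Lama1 turned positive without Control 3 (0.064), OIR 3 (0.020) or both lens-rich libraries (0.055), and with the lens covariate (0.023), and was lowest without Control 2 (-0.058). The causes were not tested.

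With the replicate number as a block, 14 members were higher, 6 integrin subunits and 8 ligands, and 1222 of all genes were higher and 809 lower. Of the members' calls it ended only that of Itgav. Deviations from the group means correlated at 0.22 for replicates 1, -0.44 for replicates 2 and -0.41 for replicates 3. Across numbers they ran from -0.42 (Control 1 with OIR 2) to 0.49 (Control 3 with OIR 2). Deviations within a group are tied to each other through the group mean. These values thus cannot show whether libraries of the same number share more than a number.

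Depth limits the lowest members. Itga11, Itgae, Itgb6, Itgb7 and Lamb3 had at most 25 reads in any library.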
